A study of Mus musculus with 8 samples.

Results

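The proliferating cells of the mouse heart were the 571 cells, of 27053 kept in 4 single-cell libraries, whose summed unique molecular identifier (UMI) count over 5 genes of dividing cells (Mki67, Top2a, Birc5, Cenpf and Ube2c) was at least 4. They came from every lineage and were chosen by these measured counts, so their high level of the 5 genes is a description and was not tested. Kept barcodes held from 200 to 6000 detected genes and from 500 to 30000 UMIs, with less than 15% of them mitochondrial. A kept cell was called macrophage with at least 10 UMIs of C1qa, C1qb and C1qc together, fibroblast with 20 of Col1a1, Col3a1 and Dcn, B cell with 3 of Cd79a and Cd79b, T cell with 2 of Cd3d and Cd3e, and endothelial with 2 of Pecam1 and Cdh5, and a cell could meet more than 1 threshold.

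The study followed pressure overload of the heart by transverse aortic constriction (TAC), in which a ligature narrows the aortic arch, at 2, 4 and 6 weeks (TAC-2w, TAC-4w and TAC-6w) beside sham surgery. Each condition had 1 single-cell library and 1 heart section for spatial transcriptomics. All animals were wild-type male C57BL/6J mice, operated at 8 weeks of age, and no transgene or Cre allele was named. By their labels, the sham and TAC-6w libraries belonged to batch 3, TAC-2w to batch 1 and TAC-4w to batch 2, while the sham and TAC-2w sections belonged to batch 1. The number of mice behind a library was not given in the labels. The protocol in the labels describes nuclei whereas the study's methods describe cells; the word cell is used below for either. Where 4 values are listed in library order, they are those of sham first and then of TAC at 2, 4 and 6 weeks.

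A cell that divides copies its DNA in S phase, passes through G2 and separates its chromosomes in mitosis (M). Ki-67, encoded by Mki67, coats mitotic chromosomes, topoisomerase IIα (Top2a) untangles DNA, survivin (Birc5) sits in the chromosomal passenger complex, Cenpf binds kinetochores, and Ube2c is the E2 enzyme with which the anaphase-promoting complex tags cyclins for destruction. Their transcripts accumulate towards mitosis, so a count of these genes marks late S, G2 and M more than G1. Resident cardiac macrophages are known to renew by local division, whereas adult cardiomyocytes rarely divide.

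Many late cell-cycle genes carry a cell-cycle genes homology region (CHR), bound by the DREAM and MuvB complexes, and CCAAT boxes bound by NF-Y. The promoters of the 5 genes are shown because their summed counts chose the cells and because the genes were high in the same cells. They are RefSeq sequences of build GRCm38.p6, the assembly also called mm10, which the submitters' notes name for these files. Each runs 5′ to 3′ on the gene's strand from 250 bases before the start to 50 after it. They lie at chr7:135716330-135716629 (minus strand, Mki67), chr11:99024140-99024439 (minus, Top2a), chr11:117848987-117849286 (plus, Birc5), chr1:189688037-189688336 (minus, Cenpf) and chr2:164769679-164769978 (plus, Ube2c). Capitals mark the CHR letters TTTGAA and the CCAAT letters, each on either strand.
Mki67: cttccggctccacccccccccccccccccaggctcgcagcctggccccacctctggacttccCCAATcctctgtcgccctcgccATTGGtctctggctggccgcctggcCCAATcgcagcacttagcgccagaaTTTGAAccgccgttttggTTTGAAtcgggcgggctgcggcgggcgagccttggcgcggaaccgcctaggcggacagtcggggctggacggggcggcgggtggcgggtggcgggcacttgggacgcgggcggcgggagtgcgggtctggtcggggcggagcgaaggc
Top2a: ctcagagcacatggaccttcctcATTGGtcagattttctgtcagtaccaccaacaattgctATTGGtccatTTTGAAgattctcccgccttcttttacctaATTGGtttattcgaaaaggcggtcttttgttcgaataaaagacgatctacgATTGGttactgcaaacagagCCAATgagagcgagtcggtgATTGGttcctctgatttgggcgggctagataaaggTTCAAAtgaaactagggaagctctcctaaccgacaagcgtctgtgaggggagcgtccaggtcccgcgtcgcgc
Birc5: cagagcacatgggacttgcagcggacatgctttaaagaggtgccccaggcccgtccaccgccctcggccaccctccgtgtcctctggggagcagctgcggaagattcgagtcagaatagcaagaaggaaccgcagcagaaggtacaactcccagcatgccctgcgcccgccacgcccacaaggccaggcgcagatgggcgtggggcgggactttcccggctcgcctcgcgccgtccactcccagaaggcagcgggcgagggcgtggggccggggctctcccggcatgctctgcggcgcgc
Cenpf: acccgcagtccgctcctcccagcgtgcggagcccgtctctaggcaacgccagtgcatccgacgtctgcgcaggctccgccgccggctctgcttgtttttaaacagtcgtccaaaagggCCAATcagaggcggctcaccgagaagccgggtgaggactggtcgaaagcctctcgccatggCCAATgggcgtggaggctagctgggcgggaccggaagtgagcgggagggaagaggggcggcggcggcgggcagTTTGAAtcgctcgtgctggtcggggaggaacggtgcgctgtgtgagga
Ube2c: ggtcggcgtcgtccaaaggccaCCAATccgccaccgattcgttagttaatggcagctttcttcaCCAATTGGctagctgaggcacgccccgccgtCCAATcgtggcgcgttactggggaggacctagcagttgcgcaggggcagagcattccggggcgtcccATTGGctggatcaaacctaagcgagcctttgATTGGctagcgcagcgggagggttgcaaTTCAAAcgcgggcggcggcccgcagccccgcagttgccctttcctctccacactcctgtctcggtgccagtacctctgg
Mki67 and Top2a each held 2 CHR matches, Cenpf and Ube2c held 1, and Birc5 held none of either motif in this window. The CHR letters stood in 18.1% of the 27025 promoters in the table and the CCAAT letters in 37.9%. Of the G2/M genes described below, 42 of 49 had a promoter in the table, and 66.7% of these held the CHR letters and 76.2% the CCAAT letters. Of the 31 S-phase genes with a promoter, 16.1% held the CHR letters and 71.0% the CCAAT letters. The matched letters are a description and not a binding site.

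Proliferating cells made up 2.73% of the sham cells (225 of 8228, exact 95% interval 2.39 to 3.11). The share was 2.75% at TAC-2w (179 of 6501, 2.37 to 3.18), 1.65% at TAC-4w (111 of 6747, 1.36 to 1.98) and 1.0% at TAC-6w (56 of 5577, 0.759 to 1.3). The sham and TAC-2w shares overlapped within their intervals, and those of TAC-4w and TAC-6w were lower than both. With 1 library a condition no difference between conditions could be tested, and all intervals here cover counting error only. Between the 2 libraries of batch 3 the share at TAC-6w was 0.367 of that in sham (0.269 to 0.494), while for TAC-2w and TAC-4w condition and batch cannot be told apart.

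The total depth of the deposited libraries was 86671674 UMIs over 10275 barcodes in sham, 78587992 over 7924 at TAC-2w, 48278486 over 8420 at TAC-4w and 28793316 over 5854 at TAC-6w. Proliferating cells were deeper than the others, with a median of 12542 UMIs against 9155 in sham, 15871 against 10778 at TAC-2w, 14100 against 4450 at TAC-4w and 8024 against 4822 at TAC-6w. When every cell was thinned to 3000 UMIs and at least 2 UMIs of the 5 genes were asked for, sham had a share of 2.92% (2.55 to 3.33) and TAC-2w one of 2.82% (2.42 to 3.28). It was 2.01% at TAC-4w (1.65 to 2.43) and 1.42% at TAC-6w (1.07 to 1.85). Thinning left out 874, 623, 1477 and 1775 shallower cells in library order. In this setting the TAC-6w share was 0.486 of that in sham (0.354 to 0.657), so the gap was smaller and kept its direction. Depth, threshold and the cells counted changed together here, and the part of each was not tested. With the mitochondrial limit at 5% the share at TAC-4w was 2.47%, above the 2.18% of sham and the 1.81% of TAC-2w, and TAC-6w had 0.889%.

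**Figure D1:**
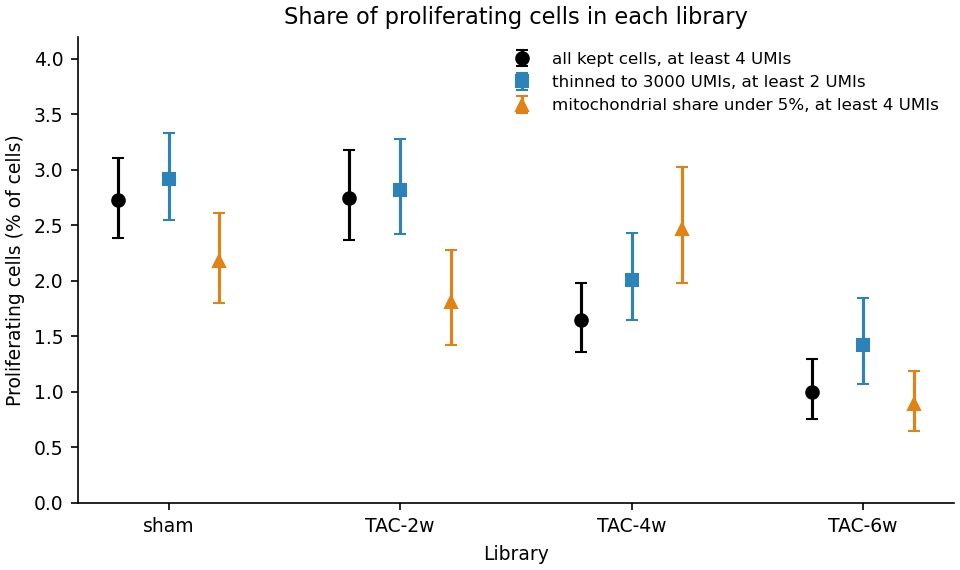
Share of proliferating cells (y axis, percent) in each single-cell library (x axis) under 3 settings. Points are shares and bars exact 95% intervals for counting error, 1 library a condition. TAC-6w was lowest in each setting, and TAC-4w moved from below to above sham when cells with a mitochondrial share of 5% or more were left out.

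The 5 genes chose the cells, so their levels are a description and check nothing. The label was compared, as a description, with the S-phase and G2/M genes given with the lineages, which hold none of the 5. In the chosen cells Mki67 stood at 947 CPM (UMIs per 1000000 UMIs of the summed cells) in sham, 1097 after 2 weeks, 1008 after 4 and 530 after 6, against 2.67, 4.05, 3.21 and 2.3 in the other cells. Top2a stood at 766, 806, 722 and 727 CPM, and Birc5 at 418, 394, 372 and 352 CPM, in library order. Ube2c stood at 580, 482, 527 and 698 CPM, and Cenpf at 479, 463, 301 and 332 CPM. Mki67 was therefore lowest at TAC-6w and Ube2c highest there, while Top2a and Birc5 differed less between libraries. All 5 genes were detected in 64.9%, 59.2%, 42.3% and 46.4% of the chosen cells, again in library order.

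The chosen cells held 93.5%, 92.8%, 91.7% and 86.0% of all UMIs of the 5 genes in library order. The threshold fell in a thin part of the range. In sham 29 cells lay just outside with 3 UMIs, 12 just inside with 4 and 181 had 10 or more. The same 3 counts were 36, 14 and 133 at TAC-2w, 16, 12 and 77 at TAC-4w, and 7, 8 and 38 at TAC-6w. G2/M genes summed to 1516 CPM in the sham cells with 3 UMIs and 2089 CPM in those with 4. The corresponding levels were 1264 and 1789 CPM at TAC-2w, 976 and 2819 at TAC-4w, and 1257 and 3230 at TAC-6w. S-phase genes did not follow in each library, with 735 CPM at 3 UMIs and 784 at 4 in sham, 830 and 1231 at TAC-2w, 295 and 288 at TAC-4w, and 1333 and 843 at TAC-6w. The TAC-4w levels lay below the 530 CPM of the cells of that library that were not chosen.

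Mature neutrophils, which no longer divide, served as the background of free RNA. Of cells without a lineage that had at least 50 UMIs of S100a8 and S100a9 and none of the granule genes of their precursors, 0 of 117 in sham were proliferating by the rule, which allows a share of up to 2.56%. The counts were 0 of 53 at TAC-2w (up to 5.66%), 1 of 760 at TAC-4w (0.132%) and 0 of 120 at TAC-6w (up to 2.5%). In sham, TAC-2w and TAC-6w these limits lay close to or above the proliferating shares of 2.73%, 2.75% and 1.0%. The counts of 0 there therefore say little about free RNA. At least 1 UMI of the 5 genes was seen in 3.42% of them in sham (median depth 2494 UMIs), against 9.24% of all kept sham cells (median depth 9250 UMIs). No barcode of a proliferating cell was shared between libraries, and 9 to 21 kept barcodes were shared by any pair.

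Macrophages were the largest group of proliferating cells, with 303 of 571, although they were 17.9% of all kept cells. They held 158 of the 225 proliferating cells in sham, 122 of 179 at TAC-2w, 5 of 111 at TAC-4w and 18 of 56 at TAC-6w. Fibroblasts held 25, 17, 0 and 16 in the same order, T cells 15, 18, 31 and 2, endothelial cells 10, 17, 14 and 6, and B cells 2, 1, 23 and 7. Cells that met no lineage threshold numbered 34, 20, 52 and 13, and 18, 15, 11 and 5 met more than 1. The sham and TAC-2w libraries were thus alike in make-up, while the TAC-4w cells were mainly lymphoid or without a lineage.

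**Figure D2:**
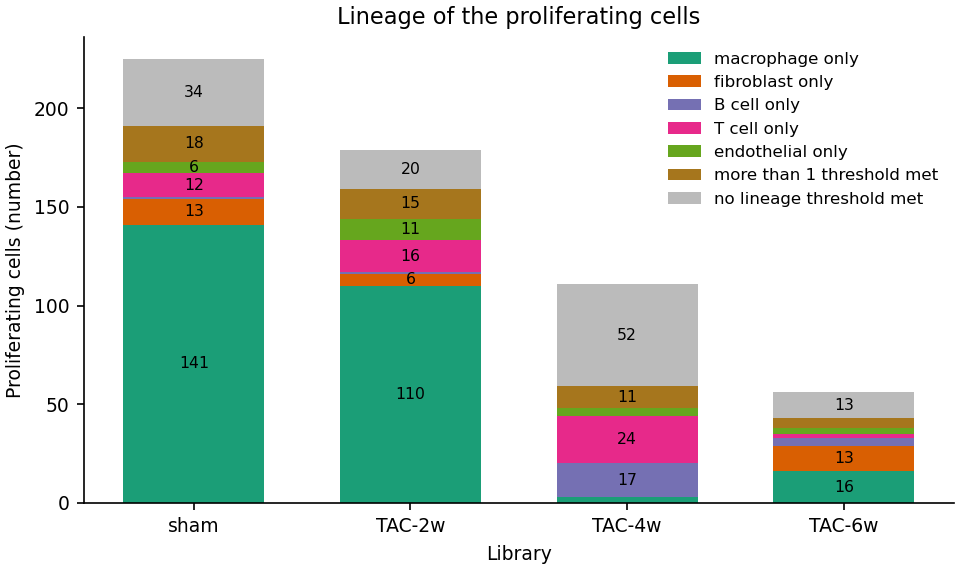
Number of proliferating cells (y axis) in each library (x axis), split by lineage threshold. Each cell is counted once, and numbers of 6 or more are printed in the bars. Cells that met only the macrophage threshold numbered 141, 110, 3 and 16 in library order.

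The make-up of the dividing cells followed in part that of the library. Macrophages were 1928 of the kept sham cells and 170 of those at TAC-4w, fibroblasts 4755 and 442, and B cells 264 and 2600. The share of each lineage that was dividing was therefore compared. In macrophages it was 8.2% in sham (7.01 to 9.51), 6.71% at TAC-2w (5.6 to 7.96), 2.94% at TAC-4w (0.962 to 6.73) and 1.92% at TAC-6w (1.14 to 3.02). Within batch 3 the macrophage share at TAC-6w was 0.234 of that in sham (0.135 to 0.383) and, at 3000 UMIs a cell, 0.34 of it (0.199 to 0.549). The interval of sham did not meet those of TAC-4w and TAC-6w, and overlapped that of TAC-2w. At 3000 UMIs a cell the macrophage share at TAC-2w was 0.774 of that in sham (0.6 to 0.995).

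Fibroblasts divided at a low share, 0.526% in sham, 0.501% at TAC-2w and 0.544% at TAC-6w. At TAC-4w 0 of 442 fibroblasts were proliferating, which allows a share of up to 0.679%, so a difference from the other libraries was not detectable at this number of cells. Against sham the fibroblast share was 1.03 at TAC-6w (0.516 to 2.02). Many of these cells met a further threshold, and of fibroblasts that met no other the share was 0.304% in sham (0.162 to 0.519), 0.197% at TAC-2w (0.0722 to 0.427) and 0.464% at TAC-6w (0.247 to 0.793). Scrublet, which scores likely doublets, marked 7 of the 25 dividing fibroblasts in sham, 7 of 17 at TAC-2w and 2 of 16 at TAC-6w. Without the cells of highest Scrublet scores the fibroblast shares were 0.396%, 0.308% and 0.5% in these libraries. Among the 5 lineages T cells had the highest dividing share in each of the 4 libraries, at 9.93% (5.67 to 15.9), 13.4% (8.16 to 20.4), 7.4% (5.08 to 10.3) and 4.26% (0.52 to 14.5). The TAC-6w value rested on 2 of 47 T cells. With cells thinned to 3000 UMIs and a threshold of 4, T cells stood there at 4.17%, below the 5.21% of B cells. At TAC-2w the interval of T cells lay above that of macrophages, and in the other libraries the intervals overlapped. B cells divided at 0.758%, 0.568%, 0.885% and 0.838%, and endothelial cells at 1.42%, 2.32%, 1.56% and 2.43%, with overlapping intervals across libraries in both lineages. At 3000 UMIs a cell the B cell share at TAC-6w was 7.29%, over the 96 of 835 B cells that were deep enough. Of endothelial cells that met no other threshold 1.65%, 2.47%, 0.762% and 1.56% were dividing in library order.

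**Figure D3:**
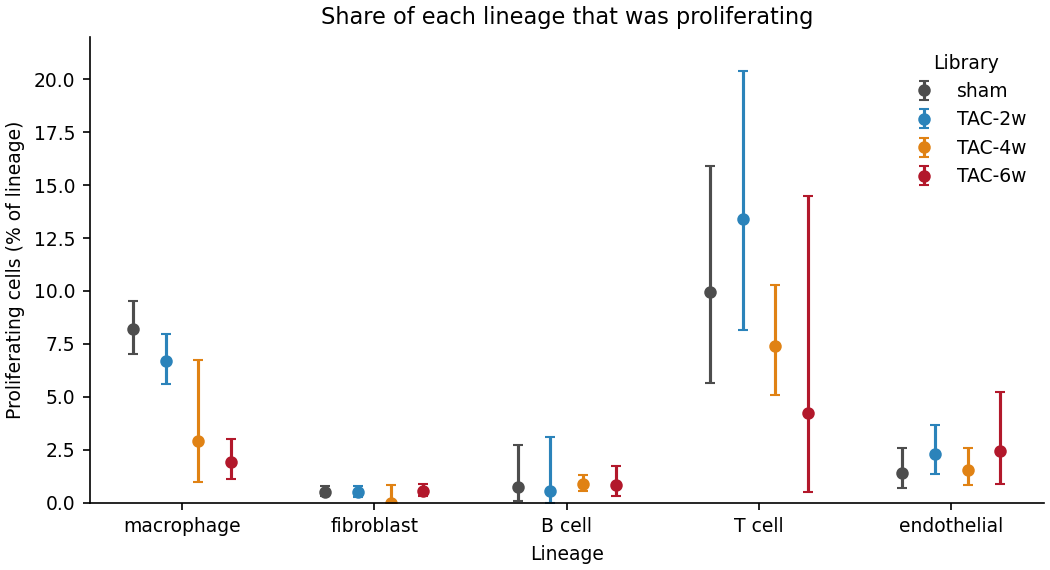
Share of each lineage that was proliferating (y axis, percent) by lineage (x axis) and library (colour). Points are shares and bars exact 95% intervals for counting error. Macrophages stood at 8.2% in sham and 1.92% at TAC-6w, whereas fibroblasts stayed at 0.544% or below in the 4 libraries.

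Many proliferating cells at TAC-4w met none of the 5 lineages, and further thresholds, which may overlap, described them. Of these 52 cells, 21 passed a threshold for granulocyte precursors (10 UMIs of Elane, Mpo, Prtn3, Ltf, Camp and Ngp, genes of neutrophil granules). These 21 were 11.1% of the 190 such cells (6.97 to 16.4). In the same 52 cells Camp stood at 21331 CPM against 3224 in the other TAC-4w cells without a lineage, and S100a9, an alarmin of neutrophils, at 65800 against 53543 CPM. Another 18 passed the erythroid threshold (3 UMIs of genes of red cell precursors, such as the haem synthesis gene Alas2), which was 24.7% of the 73 such cells (15.3 to 36.1). Monocyte genes (Ly6c2, Chil3, Plac8 and Ccr2) passed in 31 of the 52 and natural killer (NK) cell genes in 10. These were not separate groups. All 21 granulocyte precursors were among the 31, and only 1 of the 10 passed the NK threshold alone. The others of the 10 also passed the monocyte threshold, most of them with that of granulocyte precursors.

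In sham the 34 cells without a lineage included 16 with monocyte, 12 with NK, 11 with dendritic and 6 with erythroid genes, and 1 granulocyte precursor. The 20 at TAC-2w included 8 with monocyte and 7 with dendritic genes, and the 13 at TAC-6w included 5 with dendritic and 3 with monocyte genes. Dendritic cells present antigen and carry Flt3, Xcr1 or Cd209a. Of cells without a lineage that passed their threshold, 21.2% of 52 were dividing in sham (11.1 to 34.7). The share was 11.9% of 59 at TAC-2w, 7.69% of 26 at TAC-4w and 19.2% of 26 at TAC-6w. Of these dividing cells 3 in sham, 2 at TAC-2w and 3 at TAC-6w passed the dendritic threshold alone, and none did at TAC-4w. The rest also passed the monocyte threshold, so the label dendritic is uncertain for them. Cardiomyocyte genes (20 UMIs of Myh6, Tnnt2 and Actc1) were found in 1 proliferating cell without a lineage in sham and 1 at TAC-2w, of 74 and 59 such cells. No proliferating cell passed the mesothelial or Schwann cell threshold, but few kept cells did. There were 2 mesothelial cells in sham and 3 at TAC-2w, 2 Schwann cells in sham and 4 at TAC-4w, and none elsewhere. These are too few to bound a dividing share.

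The genes of the cell cycle were compared between proliferating and other cells of a lineage in each library with at least 10 proliferating cells that met only that threshold. For macrophages these were sham, TAC-2w and TAC-6w (141, 110 and 16 cells). A gene counted as higher or lower where its CPM differed at least 2-fold in every such library, among genes with at least 50 UMIs. In macrophages 547 of 11164 genes were higher, 4.9%, and 21 were lower, 0.188%. Of the S-phase list, 34 of 40 tested genes were higher and none was lower, with a median log2 ratio of 2.92 against 0.078 for all genes tested. Of the G2/M list, 45 of 49 were higher, with a median of 5.42. The 5 genes chose the cells, so these counts describe the cells and carry no test. With intervals past 1 in every library 394 genes were higher and 11 lower.

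DNA replication genes were higher in the proliferating macrophages. Of the replication licensing genes, which load the helicase on DNA, 9 of 10 were higher, among them Mcm7 at 100 CPM against 11.6 in sham, 133 against 11.1 at TAC-2w and 185 against 12.0 at TAC-6w. Pcna, the sliding clamp of the polymerases, stood at 245, 297 and 351 CPM against 88.8, 81.3 and 87.1. All 10 replication-dependent histone genes were higher, and Hist1h1b, a linker histone, stood at 1001, 1440 and 277 CPM against 6.2, 6.71 and 1.99. Of the nucleotide synthesis genes 8 of 10 were higher, with thymidine kinase Tk1 at 144, 158 and 194 CPM against 1.96, 2.51 and 1.71. The proliferating cells lay above the others in each of these libraries for the genes named here.

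Mitotic genes were higher as well. All 9 cytokinesis genes were higher, with Prc1, which bundles the central spindle, at 401, 460 and 212 CPM against 1.8, 1.76 and 0.285 in sham, TAC-2w and TAC-6w. Of the spindle checkpoint genes 8 of 10 were higher. Among 7 tested cyclins 4 were higher, and the B cyclin Ccnb2 stood at 214, 199 and 166 CPM against 0.816, 0.339 and 1.42. The G1 cyclin Ccnd1 did not follow, at 50.5, 102 and 83.1 CPM against 102, 84.4 and 63.5. Cdk1, the kinase of mitotic entry, stood at 268, 247 and 203 CPM against 4.33, 4.21 and 3.41, and 2 of 4 cyclin-dependent kinases were higher in all 3 libraries, 1 of them with intervals past 1.

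Inhibitors of these kinases were present as well. Of 6 tested, 3 were higher, namely Cdkn2d (127, 124 and 185 CPM against 23.2, 27.3 and 25.9), Cdkn2c and Cdkn2a. Cdkn1a, the p53 target p21, differed less, at 765, 951 and 858 CPM against 639, 662 and 652. Of the E2F and DREAM regulators, which switch these programmes on and off, 7 of 9 were higher, 4 of them with intervals past 1 in every library, with Foxm1 at 42.1, 53.2 and 36.9 CPM against 0.408, 0.339 and 0.854.

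Resident macrophage, MHC class II and growth factor signalling genes were lower in sum, although no member was 2-fold lower in every library. The 8 resident macrophage genes summed to 3251 CPM against 5014 in sham, 4271 against 6370 at TAC-2w and 1422 against 3560 at TAC-6w. Lyve1, a hyaluronan receptor of vessel-associated macrophages, stood at 298 CPM against 779 in sham, 520 against 968 at TAC-2w and 185 against 413 at TAC-6w. Timd4, a phosphatidylserine receptor of resident macrophages, stood at 44.2 CPM against 106, 59.9 against 110 and 27.7 against 54.1. The proliferating macrophages were thus below the others for Lyve1 in the 3 libraries and for Timd4 in sham and TAC-2w, while at TAC-6w Timd4 rested on 3 UMIs and its ratio of 0.512 had an interval of 0.105 to 1.52.

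The MHC class II genes, which present antigen to CD4 T cells, summed to ratios of 0.704, 0.631 and 0.805 in sham, TAC-2w and TAC-6w, and none of 7 was called. The monocyte-derived macrophage genes summed to ratios of 1.07, 1.01 and 1.2, while the median of their log2 ratios was -0.24, and Ccr2, the receptor for the monocyte chemokine Ccl2, stood at 116 CPM against 93.9 in sham and 166 against 81.4 at TAC-6w, with a ratio of 0.791 at TAC-2w. Macrophage growth factor signalling genes summed to ratios of 0.743, 0.777 and 0.723, with Csf1r, the receptor for macrophage colony-stimulating factor, at 589, 647 and 775 CPM against 739, 779 and 994. The quiescence list, which holds the anti-proliferative genes Btg1 and Btg2 and the factors Klf2 and Klf4, had ratios of 0.718, 0.75 and 0.713. None of its 8 genes was called, and their median log2 ratio was -0.119 against 0.078 for all genes tested. Klf2 stood at 1421, 1636 and 1154 CPM against 2300, 2524 and 2052. Lars2, the mitochondrial leucyl-tRNA synthetase that the study's title names, had ratios of 0.66 (0.617 to 0.706), 0.656 (0.611 to 0.703) and 0.81 (0.623 to 1.04). Its ratios were 0.624 and 0.57 in fibroblasts of sham and TAC-6w, 0.45, 0.685 and 0.774 in the T cells compared and 0.792 in B cells at TAC-4w. In endothelial cells at TAC-2w it stood the other way, at 2331 CPM against 1569, a ratio of 1.49 (1.28 to 1.71).

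Outside the cell-cycle lists, the 10 genes with the highest lowest ratio in macrophages were Esco2, Pclaf, Aspm, Knl1, Cenpm, Stil, Cdkn3, Iqgap3, Sgo2a and Pbk. Esco2, which acetylates cohesin in S phase, stood at 110, 145 and 138 CPM against 0.245, 0.271 and 0.285. Pclaf, a partner of PCNA, stood at 288, 321 and 332 CPM against 0.408, 0.814 and 0.854. Knl1 builds the kinetochore and Aspm focuses spindle poles, and the ratios of Knl1 were 146 (87.4 to 264), 227 (131 to 431) and, on 2 UMIs in the other cells, 227 (52.2 to 2059).

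The 5 lowest genes were 4 haemoglobin genes and Slfn5. Hbb-bs, the adult β-globin, stood at 222 CPM against 4072 in sham, 181 against 2007 at TAC-2w and 46.2 against 1002 at TAC-6w. The level in the other macrophages lay mostly in few cells. The median cell had 192 CPM among the proliferating and 362 among the other sham macrophages, and 42 of 1578 of the latter had 10 or more Hbb-bs UMIs. At TAC-6w both medians were 0, and 1 of the 850 other macrophages held 73.7% of their Hbb-bs UMIs. Slfn5, an interferon-induced gene, stood at 58.4, 44.2 and 27.7 CPM against 213, 223 and 91.1. In the proliferating cells of TAC-6w Slfn5 rested on 3 UMIs, with a ratio of 0.304 (0.0624 to 0.897), and the haemoglobin genes rested on 0 to 5.

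Between conditions, only the macrophages of sham and TAC-2w had enough proliferating cells for a comparison of gene levels (141 and 110), and these libraries differ in batch. Over 4981 genes with enough UMIs the median fold was 1.01. The 5 genes with the highest fold at TAC-2w were Cxcl13, Tagln, Myl9, Acta2 and Tpm2, and the 5 lowest were S100a8, S100a9, Camp, Lcn2 and Ngp. Most of these differences lay in single cells. In TAC-2w 1 cell held 88.8% of the Tagln UMIs, 89.2% of Myl9 and 91.9% of Acta2, the smooth muscle actin gene. In sham 1 cell held 86.8% of the S100a8 UMIs, 94.1% of S100a9 and 100% of Camp.

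With that cell left out, the 12 granulocyte genes of the marker lists went from 2064 to 156 CPM in the sham macrophages, against 14.0 CPM at TAC-2w. For the 6 mural genes the TAC-2w level went from 190 to 22.7 CPM without its highest cell, against 19.0 CPM in sham. Cxcl13, a B cell chemokine, was carried by 5 of 110 proliferating macrophages at TAC-2w and 2 of 141 in sham, the highest of the 5 with 36.4% of its UMIs. In the other macrophages it went the other way, at 102 CPM at TAC-2w against 227 in sham, a fold of 0.45 (0.422 to 0.479).

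**Figure D4:**
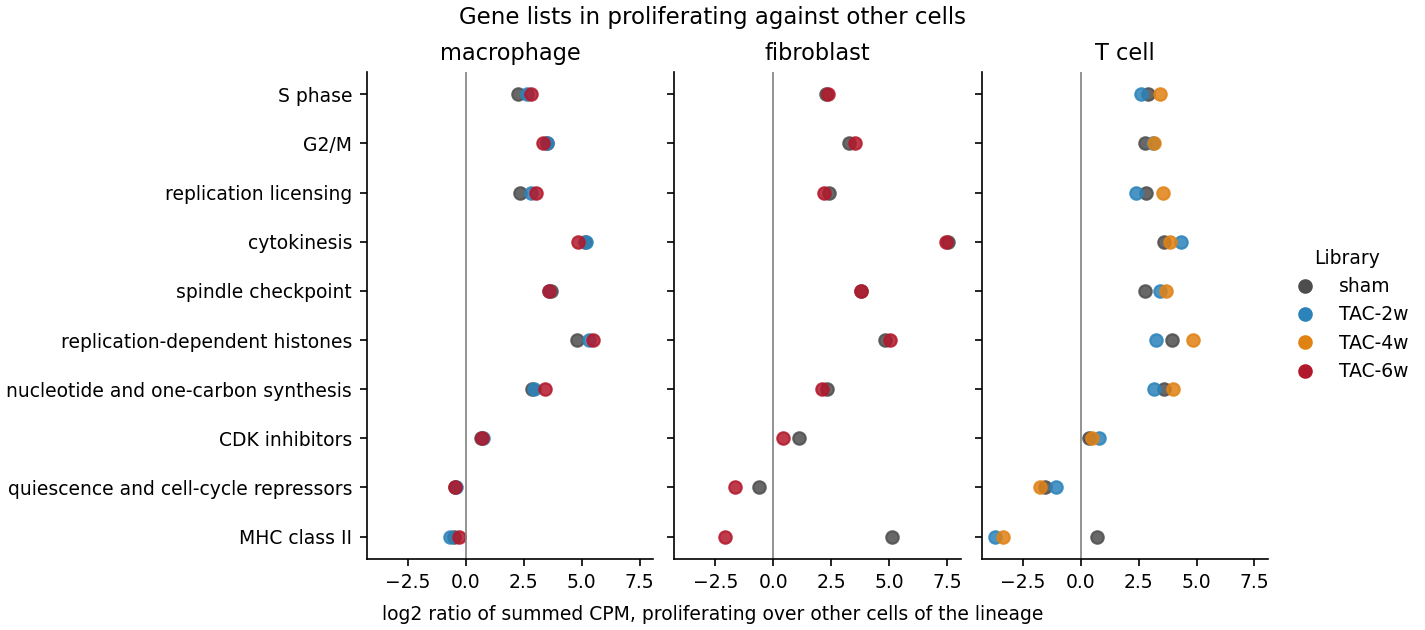
Log2 ratio of the summed CPM of 10 gene lists (x axis) in proliferating over other cells that met only the named lineage threshold, for macrophages, fibroblasts and T cells (panels). Points are libraries with at least 10 such proliferating cells. The lists from S phase to nucleotide synthesis lay above 0 in each library shown, the quiescence list below 0, and the MHC class II list of sham fibroblasts, at 35.0-fold, stood apart.

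Fibroblasts were compared in sham and TAC-6w, with 13 proliferating cells in each that met no other threshold. Here 672 of 12892 genes were higher, 5.21%, and 240 were lower, 1.86%, or 312 and 89 with intervals past 1 in both libraries. S-phase genes were higher in 22 of 37 tested, G2/M genes in 32 of 34 and cytokinesis genes in 5 of 5. The median log2 ratio was 1.79, 5.66 and 7.13, against 0.0087 for all genes tested. Prc1 stood at 608 CPM against 0.688 in sham and 553 against 0.961 at TAC-6w, and Cdk1 at 306 against 0.151 and 424 against 0.374. The 10 named genes were Aspm, Knl1, Pbk, Mxd3, Pclaf, Cdkn3, Stmn1, Spc24, Knstrn and Cenpk, of which Aspm, Knl1, Pclaf, Cdkn3 and Pbk were also among those of macrophages.

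Of the fibroblast markers that the lineage threshold did not use, Lum stood at 835 CPM against 1188 in sham and 707 against 890 at TAC-6w, and Gsn at 13271 against 21922 and 5692 against 16423. Pdgfra, the receptor by which cardiac fibroblasts are recognised, stood at 237 CPM against 308 in sham and 263 against 269 at TAC-6w. Of 10 activated fibroblast genes none was called, and they summed to 1467 CPM against 1253 in sham and 3977 against 2567 at TAC-6w. Postn, a matricellular gene of activated fibroblasts, stood at 469 CPM against 254 in sham, where 8 of 13 cells carried it. At TAC-6w it stood at 1394 against 702 CPM, with 12 of 13 cells. Cilp stood at 104 against 159 CPM in sham and 720 against 478 at TAC-6w. The median log2 ratio of the 10 genes was -0.023 against 0.0087 for all genes tested, so these values describe single genes and not the list. The ratio of Postn was 1.84 (1.49 to 2.26) in sham and 1.99 (1.73 to 2.27) at TAC-6w. That of Cilp was 0.653 (0.404 to 0.999) in sham and, the other way, 1.5 (1.24 to 1.81) at TAC-6w. The intervals cover counting error only, and neither gene was tested.

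The quiescence list was lower in sum in fibroblasts, with ratios of 0.659 in sham and 0.318 at TAC-6w, and 2 of its 8 genes were called. Btg2, 1 of the 2, stood at 321 CPM against 830 in sham and 180 against 580 at TAC-6w. Klf4, which was not called, stood at 687 against 1178 CPM in sham and 218 against 909 at TAC-6w. The lowest named genes were Mmp3, Ptgs2, Cxcl14, Podn and Inhba, which rest on 1 to 8 UMIs in the dividing cells of a library. Ptgs2, cyclooxygenase 2, stood at 24.7 CPM against 308 in sham and 12.8 against 160 at TAC-6w. In sham the dividing fibroblasts held 5944 CPM of MHC class II genes against 170, while those at TAC-6w held 19.3 against 82.6. The sham sum lay in 3 of 13 cells with 10 or more such UMIs, and 1 cell held 68.8% of it. Monocyte-derived macrophage genes stood at 1596 CPM against 60.3 in the same sham cells and 19.3 against 23.6 at TAC-6w. Resident macrophage genes summed to 133 CPM against 293 in sham and 77.1 against 264 at TAC-6w. Most of the level in the other fibroblasts was 1 gene, Gas6, at 273 CPM in sham and 257 at TAC-6w. In the dividing cells Gas6 stood at 54.3 and 70.7 CPM, so the sum describes Gas6 and not the list. Of 7 tested genes of this list 1 was higher and 1 lower, with a median log2 ratio of 0.692. Markers of granulocyte precursors and neutrophils summed to 27358 CPM against 88.4 in sham and 25.7 against 324 at TAC-6w. S100a8, an abundant neutrophil gene, stood at 8513 CPM against 30.5 in the sham cells, and Mpo, Mmp9, Csf3r and Cxcr2 were at 0 there. Of the 13 sham cells 2 held 10 or more UMIs of these markers, and 1 held 58.9% of the sum. The part of such cells in the other fibroblast values was not tested.

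T cells were compared in sham, TAC-2w and TAC-4w, with 12, 16 and 24 proliferating cells. Of 5742 genes, 346 were higher, 6.03%, and 152 were lower, 2.65%, of which 69 had intervals past 1 in every library. S-phase genes were higher in 28 of 31 tested and G2/M genes in 31 of 34, with medians of 3.05 and 4.25 on the log2 scale against -0.0057 for all genes tested. S-phase genes summed to 5526, 5820 and 7574 CPM in the dividing T cells, above the 2469 and 3112 CPM of the dividing macrophages of sham and TAC-2w. The named genes were Pclaf, Kif15, Spc24, Hist1h2bb, Ncapg2, Esco2, Fbxo5, Stmn1, Hist1h3b and Hist1h2af. Cd40lg, the helper T cell ligand for CD40, ranked first by the rule, which sets a count of 0 to 3 counts, and stood at 5.71, 5.95 and 2.9 CPM against 55.1, 47.3 and 39.9, followed by Mylip, Wfdc17, Tcp11l2 and Dapl1. These 5 genes rest on 0 to 3 UMIs in the dividing cells of a library, and Dapl1 had 0 UMIs there in all 3 against 83.6, 140 and 118 CPM.

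Genes of immature T cells were found in the dividing T cells. The 8 thymocyte genes summed to 1284 CPM against 1159 in sham, 1694 against 1313 at TAC-2w and 3279 against 991 at TAC-4w. Rag1, a subunit of the V(D)J recombinase, was found in 15 of 24 dividing T cells at TAC-4w, at 284 CPM against 81.4 in the other T cells. In sham 3 of 12 cells carried Rag1 and at TAC-2w 5 of 16. Ptcra, the pre-T-cell receptor α chain, was found in 10 of 24 cells at TAC-4w, in 1 of 12 in sham and in 1 of 16 at TAC-2w, and in 1 of 327 other T cells at TAC-4w. Dntt, which adds bases at receptor joints, stood at 708 CPM against 60.9 at TAC-4w. The list was spread over the cells at TAC-4w, where 17 of 24 had 10 or more of its UMIs and the highest cell held 9.99%. Of the 8 genes, 1 of 6 tested was called in all 3 libraries.

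Of the 8 quiescence genes 2, Klf2 and Btg1, were at least 2-fold lower in every library compared and Rb1 at least 2-fold higher, at 68.5, 107 and 87.0 CPM against 34.2, 29.5 and 34.3, where the sham interval reached down to a ratio of 0.88, with a median log2 ratio of -0.37 over the list. Their sum had ratios of 0.34, 0.482 and 0.298 in the dividing T cells, with Klf2, which keeps naive T cells in circulation, at 422, 464 and 232 CPM against 1336, 1524 and 1200. Btg1 stood at 354, 600 and 307 CPM against 1583, 1457 and 1502. MHC class II genes stood at 2660 CPM against 1621 in the sham T cells. There 1 dividing cell held 95.1% of the first sum and 1 other cell 86.0% of the second. Without these cells the levels were 145 against 234 CPM. At TAC-2w the genes stood at 77.3 against 1020 CPM and at TAC-4w at 98.6 against 1001. Without their highest cell the other T cells of these libraries stood at 163 and 282 CPM. The D cyclin Ccnd2 was lower as well, at 51.4, 53.5 and 43.5 CPM against 276, 213 and 206.

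B cells divided in number only at TAC-4w, with 17 cells that met no other threshold, and these values have no second library. Of 8662 genes tested here, 20.1% were at least 2-fold higher and 10.5% at least 2-fold lower. S-phase genes were higher in 22 of 26 tested and G2/M genes in 22 of 22. The MHC class II genes summed to 4016 CPM against 22887 in the other B cells, and 7 of 7 were at least 2-fold lower. Over cells the median was 2141 CPM among the dividing and 24008 among the others, and the dividing cells ranged from 147 to 25879. Most dividing B cells therefore lay far below the others, with overlap at the top. Genes of other cell types moved in the same 17 cells. Monocyte-derived macrophage genes summed to 1889 CPM against 809, with 3 of 5 tested genes at least 2-fold higher and Ly6c2, a surface gene of inflammatory monocytes, at 605 against 41.6. Resident macrophage genes summed to 220 CPM against 9.42, found in 3 cells, and 6 of the 8 were at 0. Of these 45 UMIs 44 were of F13a1, at 215 CPM against 6.09, so the sum describes F13a1 and not the list. Of the UMIs of Igkc, the kappa light chain constant region, 82.8% lay in 1 dividing cell. The part of such cells in the B cell values was not tested.

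Precursor genes summed to 2991 CPM against 2265 in these B cells. Ebf1, an early B cell transcription factor and the most abundant of them, stood lower, at 1410 CPM against 1872 (a ratio of 0.753, 0.668 to 0.846). Vpreb3, a VpreB family gene of B cell precursors, stood at 1332 CPM against 380 and was found in 16 of 17 cells. Vpreb1, part of the surrogate light chain, stood at 137 against 4.71 CPM and was found in 3. Rag1 was found in 4 of 17. Endothelial cells had 11 dividing cells at TAC-2w, where 9.2% of 6540 genes were at least 2-fold higher and 14.5% at least 2-fold lower. There 12 of 12 tested G2/M genes were higher and Prc1 stood at 796 CPM against 1.41. S-phase genes were higher in 9 of 14 tested, 5 of them with intervals past 1. The 3 tested cyclins were the D cyclins Ccnd1, Ccnd2 and Ccnd3. None of them was higher, and Ccnd2 was lower, at 22.7 CPM against 229. The other listed cyclins had fewer than 50 UMIs and were not tested, among them Ccnb2 at 398 CPM against 1.77 (35 and 5 UMIs). All 8 listed cyclins summed to a ratio of 1.73 (1.42 to 2.09). Of 7 tested endothelial activation genes 5 were at least 2-fold lower and none higher, but the intervals of Apln (1 UMI in the dividing cells) and Nr2f2 included 1, and Kdr, the main VEGF receptor, stood at 1012 CPM against 772.

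Over all proliferating cells, S-phase genes summed to 2673, 2945, 4127 and 2471 CPM in library order, against 464, 475, 530 and 376 in the other cells. G2/M genes summed to 9988, 10277, 11421 and 10171 CPM against 1053, 1012, 1354 and 920. The ratio of G2/M to S was 3.74, 3.49, 2.77 and 4.12 in the same order, and was lowest at TAC-4w, where the lineage make-up also differed. Against sham it stood there at 2.09 against 1.98 in T cells, 3.04 against 2.94 in cells of no lineage, 4.54 (3 cells) against 4.33 in macrophages and 3.18 (4 cells) against 3.84 (6 cells) in endothelial cells. At 3000 UMIs a cell, 86.6%, 85.0%, 74.8% and 75.0% of the proliferating cells in library order had at least 2 S-phase UMIs. The same share for G2/M genes was 97.7%, 96.5%, 90.1% and 97.9%. Both shares of cells lay below sham at TAC-2w and TAC-4w, where the summed levels lay above it. Depth and statistic both differ between the share and the summed level, and the part of either was not tested.

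The heart sections did not enter the choice of the cells and measured the same 5 genes in spots that can hold several cells. They held 1676, 2063, 1228 and 2193 spots and 25996378, 48754396, 31942372 and 48288659 UMIs in library order. The 5 genes summed to 14.2 CPM in sham (12.7 to 15.7), 9.19 at TAC-2w (8.36 to 10.1), 5.57 at TAC-4w (4.78 to 6.45) and 29.4 at TAC-6w (27.9 to 31.0). Against sham the level was 0.649 at TAC-2w (0.564 to 0.747), within 1 batch, 0.394 at TAC-4w (0.327 to 0.472) and 2.08 at TAC-6w (1.85 to 2.33). For TAC-4w and TAC-6w section and batch cannot be told apart. More dividing cells and more of this RNA per cell cannot be told apart in a spot.

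Mki67 stood at 2.35, 1.17, 0.939 and 8.14 CPM in the sections, listed in library order, and Top2a at 1.46, 0.8, 0.501 and 5.92. Birc5 stood at 1.0, 0.759, 0.564 and 4.1 CPM, and Ube2c at 3.0, 1.85, 0.877 and 7.72. Cenpf did not follow, at 6.35, 4.61, 2.69 and 3.5 CPM. The TAC-6w section was thus highest for 4 of the 5 genes and below sham for Cenpf. Without Cenpf, a setting chosen after seeing the data, the sum at TAC-6w was 3.31 times that in sham (2.86 to 3.86), at 25.9 against 7.81 CPM.

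Spots with at least 3 UMIs of the 5 genes numbered 17 in sham (1.01%), 15 after 2 weeks (0.727%), 5 after 4 (0.407%) and 152 after 6 (6.93%, 5.9 to 8.08). Macrophage markers stood in these spots at 627, 397, 540 and 398 CPM in library order, against 245, 228, 488 and 364 in the other spots, and fibroblast markers at 2430, 2163, 2499 and 2362 against 1706, 1567, 2122 and 2187. Both were higher in each section. Endothelial markers stood at 1580, 1231, 1525 and 2428 CPM against 1217, 1168, 1609 and 2087, and T cell markers at 18.4, 0, 27.8 and 15.7 against 2.26, 1.7, 8.63 and 12.0. Granulocyte precursor markers stood at 4.32 CPM against 0.562 at TAC-6w, and in the few spots of the other sections they were at 0, against 1.37, 0.496 and 3.97. These spots were deep, with a median of 35199 UMIs against 20203 over the section at TAC-6w and 25105 against 15488 in sham, and the part of depth was not tested. S-phase genes summed to 164, 172, 186 and 228 CPM over whole sections and G2/M genes to 459, 376, 513 and 563. The order of the sections differed from that of the libraries, where the 5 genes over all kept cells stood at 134, 138, 134 and 53.0 CPM and TAC-6w was lowest.

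**Figure D5:**
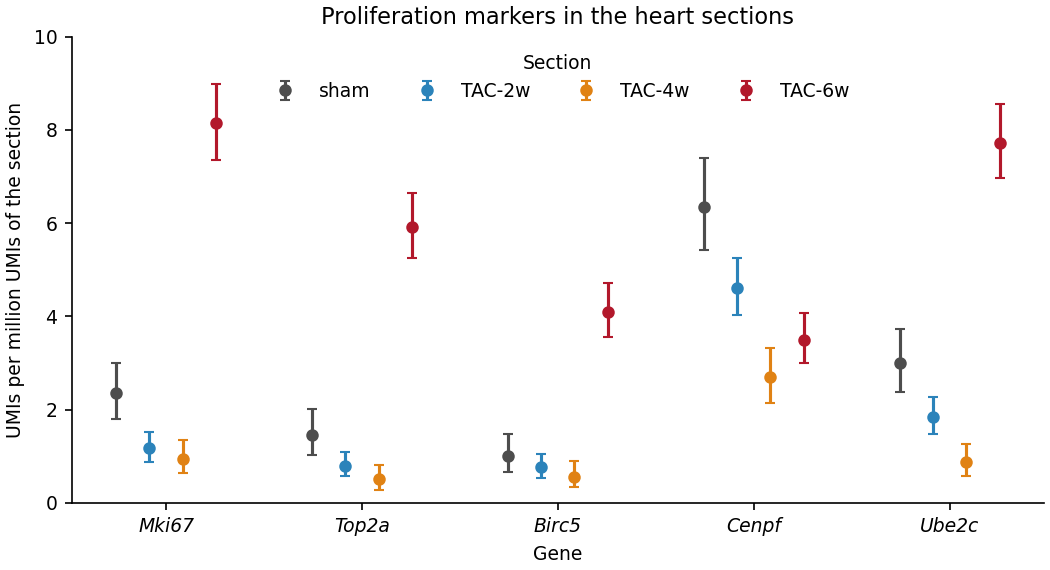
Level of the 5 marker genes (x axis) in UMIs per 1000000 UMIs of the section (y axis), by heart section (colour). Points are levels and bars exact 95% Poisson intervals for counting error, 1 section a condition. Mki67 stood at 8.14 in the TAC-6w section and 2.35 in sham, whereas Cenpf stood at 3.5 and 6.35.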

How the data were processed

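The matrices hold UMI counts per gene and barcode, raw whole numbers that the authors made with Cell Ranger and Space Ranger on mm10 and deposited without normalization. File headers name versions 6.0.0 and 1.2.0, the submitters' processing notes 7.0.0 and 1.3.1. The study's methods name a further Cell Ranger version. The cell filter is that of the study's methods. The members, gene lists and thresholds were chosen with earlier results of these data known.

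Levels are CPM, the UMIs of summed cells per 1000000 UMIs. Shares carry exact Clopper-Pearson, levels exact Poisson and ratios exact conditional binomial 95% intervals (Python 3.11.15, numpy 2.4.6, pandas 2.3.3, scipy 1.17.1). The limit beside a share of 0 is 3 counts of the total, not the Clopper-Pearson bound. A group at 0 was set to a floor of 3 counts summed over its cells, and in medians such a ratio was kept on its own side of 1. Each condition had 1 library, so p-values were not computed. Tested on simulated sums of 9884 genes at the depth of the sham macrophages, the ratio intervals held the true value in 95.7%. Doublets were kept, and as an alternative the 3.2% of cells with the highest Scrublet scores (scanpy 1.11.5) were removed. Cells were thinned with a fixed seed.

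Named genes were the 5 markers, listed genes with the most UMIs, and per lineage the 10 genes with the largest lowest ratio and the 5 with the smallest highest ratio, cell-cycle lists left out. For TAC against sham they were the 5 largest and the 5 smallest folds. Marker genes of the sections are CPM of the whole section. Alternatives were other thresholds, thinned counts, filters, lineage thresholds and leaving out a library. Some listed genes are not reported here.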

Additional observations from a re-analysis of the deposited data

Results flagged for a closer look

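The summed level of the 5 marker genes at TAC-6w was 2.08 times that of sham in the heart sections and 0.395 times that of sham over all kept cells of the libraries, and was listed because the 2 assays moved in opposite directions. This difference was not tested, since each assay had 1 sample a condition. The section and the library of TAC-6w were labelled batch 3, the sham section batch 1 and the sham library batch 3.

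Barcodes outside the cell filter also reached 4 UMIs of the 5 genes. Over the upper limits on genes or UMIs they numbered 11 in sham, 19 at TAC-2w and 31 at TAC-4w, and 0 at TAC-6w. At or over the mitochondrial limit they numbered 26 in sham, 20 at TAC-2w and 18 at TAC-4w, and 2 at TAC-6w. Counts of the first 3 libraries in that order were above the 3 counts that a count of 0 allows, and whether these barcodes hold single cells was not tested. No group had enough samples for a search for outlying samples.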

How the results depend on the processing

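No paired analysis was possible because each condition had 1 library and the replicate number 1 is only a name. The limits are the single library a condition, the small number of dividing cells outside macrophages, and total depth, which was lowest at TAC-6w. The direction of TAC-6w against sham held in each of the settings run for the overall share. In library order, a threshold of 2 UMIs in cells thinned to 3000 gave 2.92%, 2.82%, 2.01% and 1.42%, and a threshold of 4 gave 2.22%, 2.09%, 1.35% and 0.947%. A mitochondrial limit of 5% gave 2.18%, 1.81%, 2.47% and 0.889%, and an S-phase list of at least 8 UMIs in place of the 5 genes gave 15.8%, 22.6%, 10.2% and 1.99%. Most cells that passed this list were not proliferating by the rule, 1119 against 183 in sham and 73 against 38 at TAC-6w. It was not thinned, and kept cells had a median of 9250 UMIs in sham and 4828 at TAC-6w. The S-phase setting therefore cannot separate division from depth. A threshold of 3 UMIs gave 3.31% at TAC-2w, a threshold of 6 gave 1.32% at TAC-4w, and no upper limits gave 2.08% there. With the lineage shares of sham the TAC-4w share was 0.932%. The causes were not tested.

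The share of dividing cells with at least 2 UMIs of a phase list after thinning gave ratios to sham of 0.982 (S phase) and 0.988 (G2/M) at TAC-2w and 0.864 and 0.922 at TAC-4w, where the CPM gave 1.1, 1.03, 1.54 and 1.14. For S phase at TAC-6w it gave 0.866. The genes lower in dividing macrophages numbered 21, and 36 to 148 when 1 of the 3 libraries was left out, the most without TAC-6w. In T cells they numbered 152, and 237 to 363 when 1 was left out. Asking for intervals past 1, a setting chosen after seeing the data, left 11 lower genes in macrophages, 312 higher and 89 lower in fibroblasts and 69 lower in T cells. In the sections, leaving mitochondrial, haemoglobin and rRNA-like features out of the total gave ratios to sham of 0.557, 0.325 and 1.79 at 2, 4 and 6 weeks, and leaving out Cenpf gave 3.31 at TAC-6w.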

Other observations

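Proliferating cells that met more than 1 lineage threshold numbered 49 of 571. The most frequent pair was macrophage with fibroblast, with 10 cells in sham, 9 at TAC-2w and 2 at TAC-6w. Scrublet marked 11 of the 225 proliferating cells in sham, 15 of 179 at TAC-2w, 3 of 111 at TAC-4w and 4 of 56 at TAC-6w.

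Barcodes with platelet genes were proliferating by the rule in 3 of 587 at TAC-4w, where the 5 genes stood at 278 CPM of their UMIs, and in none of the 50, 10 and 14 such barcodes without a lineage in sham, TAC-2w and TAC-6w, which allows shares of up to 6.0%, 30.0% and 21.4%.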
